A study of Mus musculus with 8 samples.

Results

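Genes of glycolysis and of the hypoxia response were followed in mouse neural stem cells (NSCs) cultured with recombinant chitinase-like protein 3 (rcCHIL3) or with the growth factor control MHM + GF. The members were 44 genes listed by name: glucose transporters, glycolytic enzymes and their regulators, lactate transporters, secreted and intracellular targets of hypoxia-inducible factor (HIF), and Hif1a itself. A member was represented by the brightest probe set annotated with its symbol alone, which gave 40 of the 44 members among 18193 genes so represented on the array. Gpi1 and Eno1 were not found in the annotation used here, the probe sets of Bnip3l carry a second symbol, and Gapdh has array control probe sets alone. Of the 40 members, 38 passed the filter on low signals and were tested among 8965 genes; Slc16a3 and Car9 did not pass. All 8 arrays were at or above the filter of 50 for 30 of the 38, and the other 8 passed with fewer arrays, so for these the filter itself favours a difference.

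Glycolysis splits glucose to pyruvate, and lactate dehydrogenase turns pyruvate to lactate when respiration lags behind. When oxygen is low, prolyl hydroxylases of the Egln family no longer mark the HIF alpha subunit for destruction, and the stabilized factor raises most genes of glycolysis together with genes for vessel growth, collagen modification, mitochondrial turnover and glycogen storage. Cultured neural stem cells are known to rely on glycolysis, and they shift towards respiration as they differentiate. In these arrays most members were lower in rcCHIL3 cultures than in MHM + GF cultures at 3 days and higher at 7 days.

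The arrays were made from neurospheres, floating colonies grown from dissociated NSCs, after replating as secondary spheres for 3 or 7 days. rcCHIL3 cultures received medium conditioned by HEK293T cells, a human embryonic kidney line, that had been transfected with mouse Chil3, and MHM + GF cultures received serum-free MHM medium with epidermal and basic fibroblast growth factors. Each of the 4 groups, rcCHIL3 3 days, MHM + GF 3 days, rcCHIL3 7 days and MHM + GF 7 days, had 2 arrays, numbered in the labels. No group received medium conditioned by mock-transfected cells. The array cultures are named rcCHIL3, while a condition with growth factors added, rcCHIL3 + GF, is named apart in another assay, so by name the rcCHIL3 cultures also lacked the added growth factors. The protein, the conditioned medium and the growth factors cannot be told apart. The mice are described as adult in the series text, while the methods use embryonic and adult brains, and neither strain nor age is given per array.

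Signals below are relative to an array average of 100, and differences are on the log2(signal + 20) scale of a model with 4 group means, with the adjusted p of limma. The offset of 20 makes a difference smaller for dim probe sets. After rescaling, 30.1% to 31.5% of the probe sets of an array were at or above 50, and arrays of a group correlated with r = 0.9917 to 0.9943 across probe sets. The summed signal of 8 neural stem and progenitor markers was 7878.2 to 8245.6 in rcCHIL3 and 9641.3 to 10120.1 in MHM + GF cultures at 3 days, and 8854.5 to 8933.7 in rcCHIL3 and 9714.9 to 9816.6 in MHM + GF cultures at 7 days. Sox2 of this list had 1685.3 to 2096.3 on all 8 arrays, while Nes averaged 25.2 in rcCHIL3 and 186.6 in MHM + GF cultures at 3 days and 13.8 in rcCHIL3 and 29.9 in MHM + GF cultures at 7 days, so Nes, which encodes nestin, was dim in all groups but MHM + GF at 3 days. The sum of 7 astrocyte markers was 6479.5 to 6619.9 in rcCHIL3 and 3757.6 to 3901.8 in MHM + GF cultures at 3 days, and 7925.6 to 7970.6 in rcCHIL3 and 7355.8 to 7501.1 in MHM + GF cultures at 7 days. Gfap, the intermediate filament of astrocytes, averaged 910.0 in rcCHIL3 and 52.0 in MHM + GF cultures at 3 days. Over the 7 astrocyte markers the log2 differences between the cultures ran from -1.24 to 3.69 at 3 days and from -0.54 to 0.83 at 7 days. The sum of 7 neuroblast and neuron markers was 1642.2 to 1655.1 in rcCHIL3 and 1418.7 to 1464.7 in MHM + GF cultures at 3 days, and 1302.4 to 1430.2 in rcCHIL3 and 1947.4 to 1992.6 in MHM + GF cultures at 7 days, an order that reversed between the days. Pecam1 and Cdh5 of endothelium were at 0.3 to 6.7 and no microglial or blood marker passed the filter. The summed signal of 5 proliferation markers was 1176.2 to 1268.0 in rcCHIL3 and 3604.4 to 3747.9 in MHM + GF cultures at 3 days, and 914.0 to 989.4 in rcCHIL3 and 1523.5 to 1580.2 in MHM + GF cultures at 7 days. The ratio of 3′ to 5′ signal of Actb, a sign of RNA integrity, was 1.34 to 1.41 in rcCHIL3 and 1.33 to 1.35 in MHM + GF cultures at 3 days, and 1.46 to 1.57 in rcCHIL3 and 1.65 to 1.83 in MHM + GF cultures at 7 days. The same ratio for Gapdh was 0.755 to 0.805 in rcCHIL3 and 0.848 to 0.854 in MHM + GF cultures at 3 days. At 7 days the Gapdh ratio was 0.852 to 0.867 in rcCHIL3 and 0.822 to 0.89 in MHM + GF cultures, which overlap. The part of these differences in the results below was not tested. In whole cultures, fewer cells that express a gene and less RNA per cell cannot be told apart.

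The cultures were compared at each day as whole media, since the protein, the conditioned medium and the growth factors cannot be told apart. At 3 days, 27 of the 38 tested members were lower with rcCHIL3, 6 were higher and 5 did not pass the threshold, whereas 22.1% of all genes tested were lower and 30.3% were higher. The median difference of the tested members was -0.55, against 0.04 over all genes tested. At 7 days, 31 of the 38 were higher with rcCHIL3, 3 were lower and 4 did not pass, where 21.8% of all genes tested were higher and 22.6% lower. The median was 1.16 for the members and -0.01 for all genes. With the signals as deposited, without rescaling, the share of called genes that were higher was 47.4% in place of 57.8% at 3 days and 65.8% in place of 49.1% at 7 days, and the median of all genes at 7 days was 0.09. The members then numbered 4 higher and 27 lower at 3 days and 31 higher and 1 lower at 7 days.

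A total of 25 of the 38 members were both lower at 3 days and higher at 7 days, a combination found in 3.55% of all genes tested. They were Slc2a3, Hk2, Pfkl, Pfkp, Aldoa, Tpi1, Pgk1, Pgam1, Eno2, Pkm, Ldha, Pdk1, Vegfa, Adm, Egln1, Egln3, P4ha1, P4ha2, Bnip3, Higd1a, Gys1, Ankrd37, Ndrg1, Ddit4 and Ero1a. Pfkm, Pfkfb4 and Slc16a1 were higher with rcCHIL3 at both days and none was lower at both, where 18.6% of all genes differed in the same direction at both days. Ldhb and Angptl4 were higher at 3 days and lower at 7 days, as were 4.76%. Slc2a1, Hk1, Aldoc, Pfkfb3, Kdm3a, Gbe1 and Hif1a passed the threshold at 1 day alone, and Mxi1 passed at neither.

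**Figure D1:**
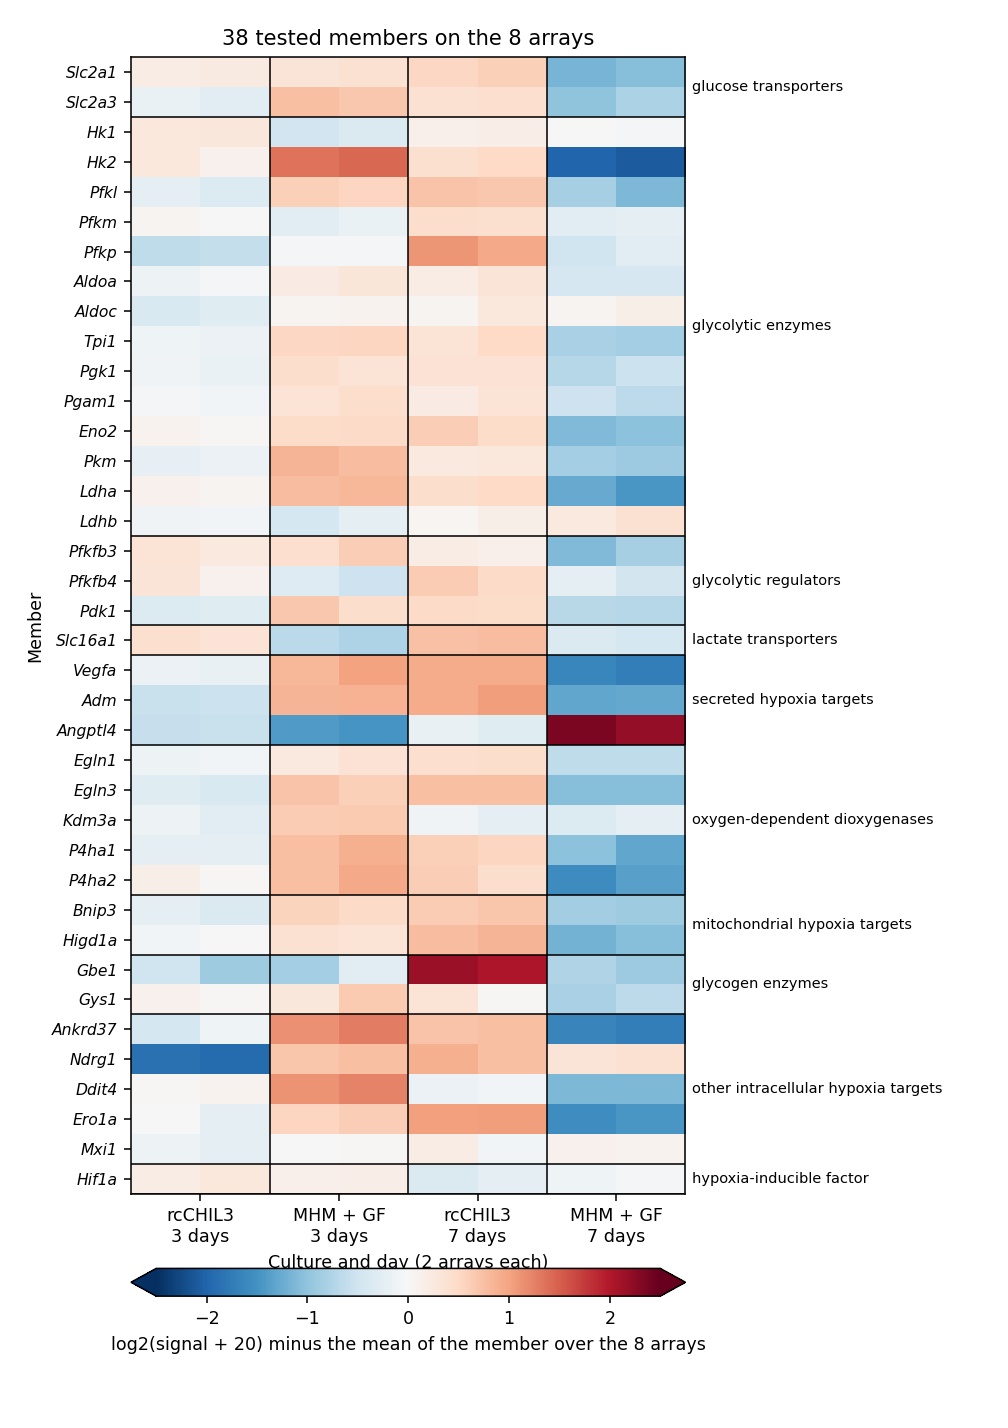
Heat map of the 38 tested members (rows, by role) on the 8 arrays (columns, 2 per group); colour is log2(signal + 20) minus the mean of the member over the 8 arrays. MHM + GF at 7 days is the lowest group for 28 of the 38 rows, and the Angptl4 row runs the other way.

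The change with time ran in opposite directions in the cultures. In rcCHIL3 cultures 31 of the 38 members were higher at 7 days than at 3 days and 1 was lower (20.3% and 18.1% of all genes tested), with a median difference of 0.46. In MHM + GF cultures 29 were lower at 7 days and 4 were higher (24.2% and 34.0% of all genes tested), with a median of -1.31. The MHM + GF cultures at 7 days had the lowest mean of the 4 groups for 28 of the 38 members, against 21.2% of all genes tested. The highest mean was in rcCHIL3 at 7 days for 17 members and in MHM + GF at 3 days for 16, against 26.1% and 25.8% of all genes. The comparisons between the days share arrays with those between the cultures and are not independent of them. The rcCHIL3 difference at 7 days minus that at 3 days, tested as an interaction, was positive for 31 members and negative for 4 (19.2% and 24.1% of all genes tested). With the signals as deposited 69.9% of the called genes were higher between the days in rcCHIL3 in place of 53.0%, and 64.7% of the called interactions were positive in place of 44.3%, with medians of all genes of 0.11 and 0.1.

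Glucose enters the cells through facilitative transporters. Slc2a1, the widely expressed transporter GLUT1, had signals of 942.9 and 986.8 in rcCHIL3 cultures and 278.3 and 302.7 in MHM + GF cultures at 7 days. At 3 days it had 739.3 and 765.2 in rcCHIL3 and 818.2 and 856.1 in MHM + GF cultures. Slc2a1 was 3.32-fold higher at 7 days (log2 difference 1.67 ± 0.07 SE, adjusted p = 1.6e-08), and its difference of -0.15 at 3 days did not pass (adjusted p = 0.076), although the arrays of that day do not overlap. The 2 other tested probe sets of Slc2a1 were lower at 3 days, by 0.34 and 0.39 (adjusted p = 0.0022 and 0.00081), and the call was gained with the mean over its probe sets (-0.29, adjusted p = 0.0012), with quantile normalization (adjusted p = 0.038) and with the replicate block (adjusted p = 0.041). Slc2a3, the high-affinity transporter of neurons, had 472.3 and 441.8 in rcCHIL3 against 910.3 and 863.0 in MHM + GF cultures at 3 days. It was 698.1 and 720.4 in rcCHIL3 against 253.4 and 296.8 in MHM + GF cultures at 7 days.

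Of the 17 glycolytic enzymes listed, 14 were tested. At 3 days 11 were lower with rcCHIL3 and 3 were higher (22.1% and 30.3% of all genes tested), with a median difference of -0.49. At 7 days 11 were higher and Ldhb was lower (21.8% and 22.6% of all genes tested), with a median of 1.06. Hk1 and Aldoc did not pass at 7 days. Enzymes of the upper and the lower pathway were among those lower at 3 days and higher at 7 days, from Hk2 at its entry to Ldha at its end.

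Hk2, the inducible hexokinase that commits glucose to the pathway, showed the widest swing of the enzymes. Its signal was 166.8 and 148.6 in rcCHIL3 and 380.1 and 398.6 in MHM + GF cultures at 3 days. At 7 days it was 184.9 and 200.2 in rcCHIL3 and 19.4 and 16.8 in MHM + GF cultures. The rcCHIL3 arrays of Hk2 thus stayed within a narrow band over the days while the MHM + GF arrays lay above that band at 3 days and below it at 7 days. The log2 difference was -1.21 ± 0.09 SE at 3 days (adjusted p = 6.1e-07) and 2.48 ± 0.09 at 7 days (adjusted p = 8.9e-09). The low signals at 7 days in MHM + GF are under the offset, so the size depends on it, with 1.83 for an offset of 50 and 3.41 for a floor of 10 without an offset.

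Hk1, the hexokinase of most resting tissues, did not follow Hk2. It had 529.0 and 535.5 in rcCHIL3 against 307.1 and 332.6 in MHM + GF cultures at 3 days and was 1.66-fold higher (log2 difference 0.70 ± 0.07 SE, adjusted p = 4.3e-06). Hk1 had 479.5 and 493.2 in rcCHIL3 and 441.2 and 426.6 in MHM + GF cultures at 7 days, a difference of 0.16 that did not pass (adjusted p = 0.071). Its second tested probe set was dim, at or above the filter in rcCHIL3 at 3 days alone. It was higher with rcCHIL3 at both days, by 0.58 and 0.38 (adjusted p = 0.0019 and 0.025). With the mean over probe sets the 7-day call of Hk1 was gained (0.27, adjusted p = 0.016). Between the days in MHM + GF cultures, Hk1 changed by 0.42 in its brightest probe set and -0.11 in the second. This call was lost with the mean (0.15, adjusted p = 0.11).

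Phosphofructokinase, the main control point of the pathway, is built from 3 kinds of subunit, which differed here. Pfkp, the platelet-type subunit, had 796.3 and 712.0 in rcCHIL3 and 249.4 and 293.7 in MHM + GF cultures at 7 days. At 3 days its signals of 225.8 and 233.2 in rcCHIL3 lay below 350.3 and 354.5 in MHM + GF cultures. Pfkp was the enzyme with the steepest increase in rcCHIL3 cultures, with a log2 difference of 1.63 ± 0.08 SE between 7 and 3 days (adjusted p = 1.7e-07). Pfkl, the liver-type subunit, was lower by 0.85 at 3 days and higher by 1.67 at 7 days on the log2 scale. Pfkm, the muscle-type subunit, was higher with rcCHIL3 at both days, by 0.25 and 0.67. The call for Pfkm at 3 days was lost without replicate 1 of either culture at that day (adjusted p = 0.07 without the rcCHIL3 array and 0.074 without the MHM + GF array).

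Of the enzymes of the middle and lower pathway, Tpi1, which interconverts the triose phosphates, was 1.58-fold lower with rcCHIL3 at 3 days and 2.42-fold higher at 7 days. Pgk1, which makes the first ATP of the pathway, had 1581.8 and 1498.8 in rcCHIL3 against 2282.8 and 2131.0 in MHM + GF cultures at 3 days. Its signals at 7 days were 2150.1 and 2173.2 in rcCHIL3 and 1021.5 and 1144.3 in MHM + GF cultures, so the arrays of the cultures were apart at both days, in opposite orders. Aldoa, Pgam1, Eno2 and Pkm, which encode aldolase, phosphoglycerate mutase, the neuronal enolase and pyruvate kinase, were lower by 0.34 to 0.99 at 3 days and higher by 0.68 to 1.59 at 7 days on the log2 scale. Aldoc, the aldolase of astrocytes, was lower by 0.42 at 3 days and had 1659.3 and 1913.3 in rcCHIL3 against 1666.8 and 1762.4 in MHM + GF cultures at 7 days, where the arrays overlapped (adjusted p = 0.56).

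Gapdh could be read from array control probe sets alone and was not counted above. The brightest of them had 2048.3 and 2046.0 in rcCHIL3 and 2549.8 and 2498.8 in MHM + GF cultures at 3 days. It had 2499.2 and 2667.2 in rcCHIL3 and 1736.8 and 1538.4 in MHM + GF cultures at 7 days. In a fit that admits these probe sets Gapdh was lower by 0.30 at 3 days (adjusted p = 0.003) and higher by 0.65 at 7 days (adjusted p = 2e-05), so this common reference gene was not constant over the groups.

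The 2 lactate dehydrogenase genes moved apart. Ldha, whose product favours lactate formation, had 1206.4 and 1184.6 in rcCHIL3 and 1944.8 and 2028.6 in MHM + GF cultures at 3 days. It had 1525.8 and 1593.5 in rcCHIL3 and 458.1 and 397.7 in MHM + GF cultures at 7 days. Ldha was 1.66-fold lower with rcCHIL3 at 3 days (adjusted p = 6.3e-06) and 3.64-fold higher at 7 days (adjusted p = 1.6e-08). Ldhb, whose product favours the use of lactate, had 1457.7 and 1485.4 in rcCHIL3 and 1143.2 and 1320.4 in MHM + GF cultures at 3 days. At 7 days Ldhb had 1608.5 and 1734.1 in rcCHIL3 against 1835.8 and 2042.7 in MHM + GF cultures. The differences of Ldhb, 0.26 and -0.21, are small beside those of Ldha. Other tested probe sets of Ldhb had -0.14, -0.14 and -0.18 at 7 days and did not pass (adjusted p = 0.11, 0.12 and 0.11). Among other settings, the 7-day call was lost with the mean over probe sets (-0.17, adjusted p = 0.06). It was also lost with the signals as deposited (-0.11, adjusted p = 0.4). The call at 7 days (adjusted p = 0.049) was lost without either rcCHIL3 array of 3 days (adjusted p = 0.072 for each), without replicate 1 or 2 of rcCHIL3 at 7 days (0.22 and 0.057) and without replicate 2 of MHM + GF at 7 days (0.29). The call at 3 days was lost without replicate 1 or 2 of rcCHIL3 (adjusted p = 0.065 and 0.092) and without replicate 1 of MHM + GF of that day (0.18).

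**Figure D2:**
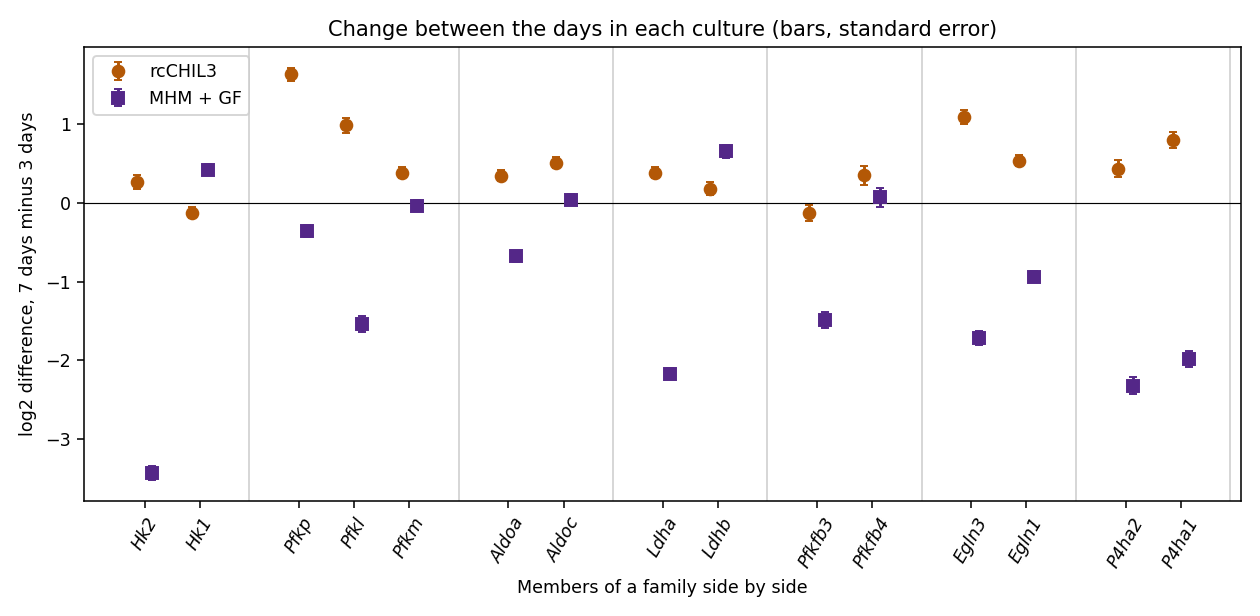
Log2 difference between 7 and 3 days (y axis) in rcCHIL3 (circles) and MHM + GF cultures (squares) for members of the same family, with standard errors as bars. Hk2 and Ldha lie far below 0 in MHM + GF cultures, at -3.43 and -2.17. Hk1 and Ldhb lie above 0, at 0.42 and 0.65, in their brightest probe sets.

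The HIF complex binds a short core element, and the promoter windows of members were scanned for it to show where it lies. The letters searched were ACGTG and GCGTG on both strands, in the 250 bases before each start site in RefSeq (GRCm38.p6); ACGTG overlaps the E-box CACGTG, which other factors bind. Windows were listed for 40 of the 44 members, 58 in all, with several start sites for some genes; Angptl4, Bnip3l, Ndrg1 and Slc2a3 were not matched. Of the 58 windows, 44 held either form (75.9%) and 27 held ACGTG (46.6%). Of all 32851 windows 38.6% held either form and 16.6% held ACGTG, and of the windows of genes tested here 57.9% and 22.3%. ACGTG was in 12 of 21 windows of the hypoxia targets outside glycolysis (57.1%) and in 9 of 28 of the glycolytic enzymes (32.1%). Either form was in 15 of 21 windows of these targets (71.4%) and in 21 of 28 of the enzymes (75.0%). The order of the lists thus depends on the form counted. A match of letters is a description and not a bound site. The windows below are those of the lactate dehydrogenase genes, which moved apart, of Pgk1, and of Ankrd37 and Gbe1, which had the most positive interaction and the largest 7-day difference among the members on the log2(signal + 20) scale; capitals mark the matches, printed 5′ to 3′ on the strand of the gene.
Ldha, chr7:46845554-46845803, plus strand: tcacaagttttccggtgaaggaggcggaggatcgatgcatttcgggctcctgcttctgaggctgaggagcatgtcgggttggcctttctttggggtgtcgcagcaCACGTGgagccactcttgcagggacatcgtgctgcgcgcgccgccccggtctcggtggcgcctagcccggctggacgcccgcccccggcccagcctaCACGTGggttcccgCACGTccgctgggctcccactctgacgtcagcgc
Ldhb, chr6:142507958-142508207, minus strand: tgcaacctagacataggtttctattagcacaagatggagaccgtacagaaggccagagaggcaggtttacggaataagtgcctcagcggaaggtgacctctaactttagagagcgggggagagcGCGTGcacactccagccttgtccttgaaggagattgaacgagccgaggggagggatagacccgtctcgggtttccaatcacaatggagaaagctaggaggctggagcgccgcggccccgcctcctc
Pgk1, chrX:106186850-106187099, plus strand: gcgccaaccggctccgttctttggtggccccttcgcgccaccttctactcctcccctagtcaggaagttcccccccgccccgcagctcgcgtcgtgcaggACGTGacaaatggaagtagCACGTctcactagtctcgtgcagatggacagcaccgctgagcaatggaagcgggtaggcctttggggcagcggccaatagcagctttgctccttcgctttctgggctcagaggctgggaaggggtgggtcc
Ankrd37, chr8:45999851-46000100, minus strand: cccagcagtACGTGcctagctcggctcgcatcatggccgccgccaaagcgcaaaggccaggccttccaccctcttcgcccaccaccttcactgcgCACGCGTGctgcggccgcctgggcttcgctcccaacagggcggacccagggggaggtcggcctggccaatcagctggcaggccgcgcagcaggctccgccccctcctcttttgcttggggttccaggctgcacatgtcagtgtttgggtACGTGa
Gbe1, chr16:70313699-70313948, plus strand: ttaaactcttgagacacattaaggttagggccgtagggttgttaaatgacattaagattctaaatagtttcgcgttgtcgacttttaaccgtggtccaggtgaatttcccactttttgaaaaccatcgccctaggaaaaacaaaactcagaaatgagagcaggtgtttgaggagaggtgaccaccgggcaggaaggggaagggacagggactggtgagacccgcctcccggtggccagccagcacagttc
In the window printed, Ldha has CACGTG at 2 places and 1 more match, while a second Ldha window, chr7:46846832-46847081 on the plus strand, has 1 match; Ldhb has a single GCGTG, Pgk1 has ACGTG once on each strand, Ankrd37 has matches at both ends of its window and inside it, and Gbe1 has none of these letters in this window.

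Of the regulators of glycolysis, Pdk1 followed the enzymes. Its product, a kinase that shuts pyruvate out of the citrate cycle, had signals of 230.9 and 236.0 in rcCHIL3 and 484.3 and 410.4 in MHM + GF cultures at 3 days. Pdk1 had 424.2 and 417.5 in rcCHIL3 and 175.3 and 173.1 in MHM + GF cultures at 7 days, a 2.42-fold difference (adjusted p = 8.6e-07). Pfkfb3, which makes an allosteric activator of phosphofructokinase, was higher with rcCHIL3 at 7 days (1.12 ± 0.10 SE) and had a difference of -0.23 at 3 days (adjusted p = 0.079). Pfkfb4, a second enzyme of this kind, was higher at both days, by 0.63 and 0.91, from low signals of 25.4 to 81.8. The 4 arrays of Pfkfb4 at or above the filter were those of rcCHIL3, so the filter itself favours this direction.

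Slc16a1, the transporter MCT1 that carries lactate across the plasma membrane, differed from the glycolytic genes. It had 1134.5 and 1091.2 in rcCHIL3 and 528.5 and 496.1 in MHM + GF cultures at 3 days. It had 1442.3 and 1476.1 in rcCHIL3 and 666.3 and 629.7 in MHM + GF cultures at 7 days. Slc16a1 was higher with rcCHIL3 at each day, by 1.09 and 1.15 on the log2 scale, and the difference between these of 0.06 ± 0.09 SE did not pass (adjusted p = 0.63). Slc16a3, the lactate exporter MCT4 of strongly glycolytic cells, was dim, at 12.2 to 24.5 in all arrays but those of MHM + GF at 7 days, which had 4.0 and 2.5.

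**Figure D3:**
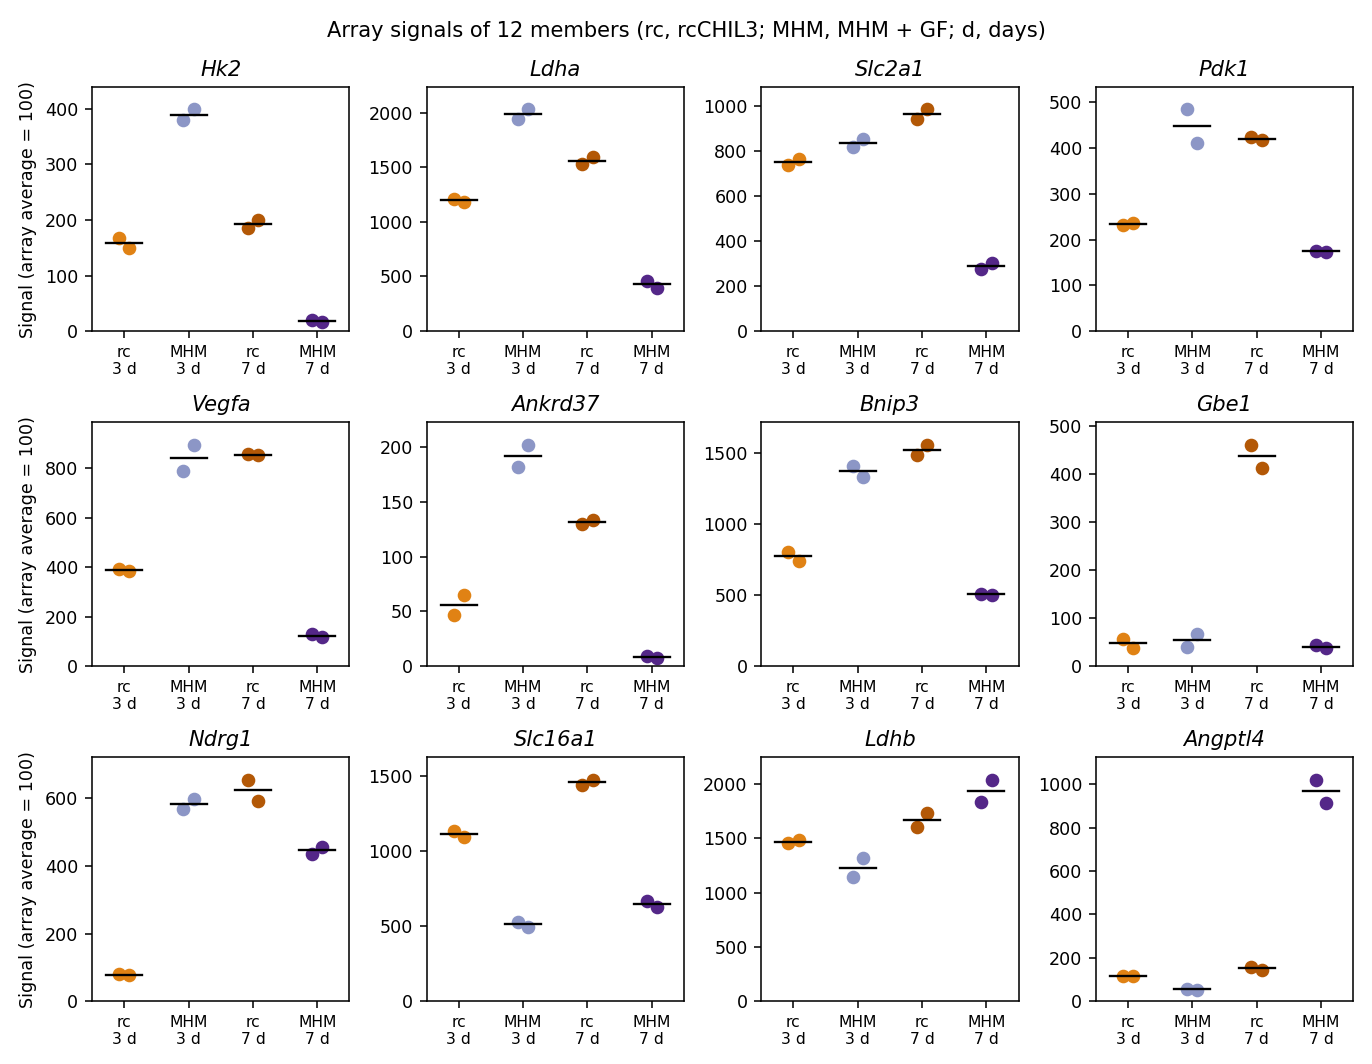
Signal (y axis, array average 100) of 12 members on each array (points) with the group mean (line) for rcCHIL3 and MHM + GF at 3 and 7 days. Vegfa and Bnip3 are lowest in MHM + GF at 7 days, Gbe1 is high in rcCHIL3 at 7 days alone, and Angptl4 is high in MHM + GF at 7 days alone.

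Of the hypoxia targets outside glycolysis 17 of 19 were tested. Of all genes tested, 22.1% were lower and 30.3% higher at 3 days, and 21.8% were higher and 22.6% lower at 7 days. At 3 days 14 targets were lower with rcCHIL3, Angptl4 was higher and Gbe1 and Mxi1 did not pass, with a median difference of -0.81. At 7 days 14 were higher, Angptl4 was lower and Kdm3a and Mxi1 did not pass, with a median of 1.73.

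Among the secreted factors, Adm, the vasodilator peptide adrenomedullin, had 96.5 and 98.4 in rcCHIL3 and 292.0 and 293.4 in MHM + GF cultures at 3 days. It had 305.2 and 333.7 in rcCHIL3 and 49.8 and 50.7 in MHM + GF cultures at 7 days. The levels of Adm were nearly exchanged between the cultures, 3.00-fold lower with rcCHIL3 at 3 days and 6.36-fold higher at 7 days. Vegfa, the vascular growth factor, had 394.1 and 383.7 in rcCHIL3 against 789.0 and 896.2 in MHM + GF cultures at 3 days. It had 856.2 and 853.5 in rcCHIL3 and 128.6 and 117.4 in MHM + GF cultures at 7 days, which gave an interaction of 3.69 ± 0.11 SE (adjusted p = 3.4e-09).

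Angptl4, a secreted inhibitor of lipoprotein lipase that fatty acid sensing receptors induce as well as HIF, opposed the other targets that passed the threshold at both days. It had 116.0 and 117.9 in rcCHIL3 and 55.9 and 53.0 in MHM + GF cultures at 3 days. Angptl4 then had 158.2 and 144.3 in rcCHIL3 and 1022.1 and 915.1 in MHM + GF cultures at 7 days. Angptl4 was 2.15-fold higher with rcCHIL3 at 3 days (adjusted p = 4.6e-06) and 6.40-fold lower at 7 days (log2 difference -2.53 ± 0.08 SE, adjusted p = 6e-09). Pdgfrb, a marker of mural cells, also was highest in MHM + GF at 7 days, with 187.3 and 211.5 against 17.4 and 17.6 in rcCHIL3 cultures of that day, where the summed signal of the 7 endothelial and mural markers was 124.8 to 132.0 in rcCHIL3 and 479.6 to 523.3 in MHM + GF cultures. At 3 days that sum was 208.8 to 212.1 in rcCHIL3 and 91.9 to 119.6 in MHM + GF cultures. Pecam1, Cdh5 and Tek of this list were at 6.7 or less on every array. Whether these markers bear on the level of Angptl4 was not tested.

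The dioxygenases, which use oxygen as a substrate, were lower with rcCHIL3 at 3 days in 5 of 5 cases (22.1% of all genes tested). At 7 days 4 of 5 were higher (21.8% of all genes tested). Egln3, a prolyl hydroxylase that is itself induced by HIF, had 78.9 and 73.4 in rcCHIL3 and 180.5 and 163.3 in MHM + GF cultures at 3 days. It had 184.5 and 184.3 in rcCHIL3 against 37.9 and 38.2 in MHM + GF cultures at 7 days. Egln1, the main oxygen sensor of this family, changed less, by -0.41 at 3 days and 1.05 at 7 days. P4ha1 and P4ha2, the collagen prolyl hydroxylases, were lower by 1.06 and 0.76 at 3 days and higher by 1.73 and 1.99 at 7 days. Kdm3a, a histone demethylase, was the exception at 7 days, with 465.8 and 420.9 in rcCHIL3 and 383.8 and 414.6 in MHM + GF cultures (adjusted p = 0.14); at 3 days it was 1.83-fold lower with rcCHIL3.

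The 2 tested mitochondrial targets followed the main pattern in their brightest probe sets. Bnip3, a receptor for the removal of mitochondria, had 806.8 and 743.1 in rcCHIL3 and 1410.2 and 1334.6 in MHM + GF cultures at 3 days. It had 1488.7 and 1561.3 in rcCHIL3 and 511.3 and 502.8 in MHM + GF cultures at 7 days, which is 3.01-fold higher with rcCHIL3. Higd1a, a small protein of the respiratory chain, was higher by 1.94 at 7 days and lower by 0.40 at 3 days in its brightest probe set. Its dimmer probe sets had differences of -0.08 and 0.35 at 3 days that did not pass (adjusted p = 0.55 and 0.1). With the mean over probe sets the 3-day call of Higd1a was lost (-0.04, adjusted p = 0.67).

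Gbe1, the branching enzyme of glycogen synthesis, was raised in a single group. It had 460.7 and 412.7 in rcCHIL3 at 7 days against 43.8 and 36.8 in MHM + GF cultures of that day. At 3 days it had 56.2 and 38.3 in rcCHIL3 and 39.7 and 67.6 in MHM + GF cultures, which overlap (log2 difference -0.12, adjusted p = 0.6). The 7-day difference of Gbe1, 2.92 ± 0.17 SE, was the largest of the tested members on this scale, but without an offset, with a floor of 10, it was 3.44 and that of Ankrd37 was 3.72; 4 of the 8 Gbe1 arrays reached the filter, among them both of rcCHIL3 at 7 days. Gys1, which builds the glycogen chain, was higher by 0.92 at 7 days, from signals of 27.3 to 110.3, and lower by 0.40 at 3 days. The 3-day call of Gys1 was lost without any array of that day but replicate 1 of MHM + GF, with adjusted p = 0.075 and 0.13 without rcCHIL3 replicates 1 and 2 and 0.26 without MHM + GF replicate 2.

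The other intracellular targets held the most extreme values at 3 days. Ndrg1, a stress-responsive protein of differentiating cells, had 80.6 and 76.4 in rcCHIL3 and 567.3 and 596.7 in MHM + GF cultures at 3 days, 7.41-fold lower with rcCHIL3 (log2 difference -2.61 ± 0.07 SE, adjusted p = 5.7e-10). At 7 days it had 655.3 and 592.6 in rcCHIL3 and 435.4 and 457.2 in MHM + GF cultures, 1.40-fold higher. Ndrg1 was low in rcCHIL3 at 3 days alone, unlike the members that were lowest in MHM + GF at 7 days. Ankrd37, a small ankyrin repeat protein, had 46.9 and 64.9 in rcCHIL3 and 181.5 and 202.3 in MHM + GF cultures at 3 days, and 130.0 and 133.5 in rcCHIL3 and 9.1 and 7.6 in MHM + GF cultures at 7 days. The MHM + GF signals at 7 days are under the offset, so the 7-day difference of 2.42 became 1.64 with an offset of 50 and 3.72 with a floor of 10 without an offset. The interaction of Ankrd37, 3.91 ± 0.17 SE, was the largest of the tested members on this scale, but with an offset of 50 it was 2.83 and that of Vegfa was 3.41. Ero1a, an oxidase of disulfide bond formation, had 433.8 and 370.4 in rcCHIL3 against 637.4 and 679.1 in MHM + GF cultures at 3 days. It had 904.4 and 919.0 in rcCHIL3 and 135.7 and 145.2 in MHM + GF cultures at 7 days, and its 3 tested probe sets changed in the same directions.

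Ddit4, an inhibitor of the growth kinase mTOR, was highest in MHM + GF at 3 days, with 1642.5 and 1769.5, against 756.3 and 794.9 in rcCHIL3 cultures of that day. Its signals at 7 days were 667.5 and 703.9 in rcCHIL3 and 329.5 and 327.8 in MHM + GF cultures. Mxi1, a repressor of the Myc network, had 374.8 to 507.8 over the 8 arrays, and none of its differences between the cultures passed. Car9, a carbonic anhydrase and a common marker of hypoxic cells, was under the filter, at 24.9 or less on all arrays.

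Hif1a, which is regulated mainly through the stability of its protein, had small differences in RNA. It had 1043.4 and 1095.6 in rcCHIL3 and 1005.2 and 1031.4 in MHM + GF cultures at 3 days, a difference of 0.07 that did not pass (adjusted p = 0.4). At 7 days it had 702.4 and 772.9 in rcCHIL3 and 849.1 and 885.9 in MHM + GF cultures, a difference of -0.23 (adjusted p = 0.014). A second tested probe set of Hif1a had 132.3 and 121.2 in rcCHIL3 and 105.2 and 100.4 in MHM + GF cultures at 7 days, a difference of 0.26 in the other direction (adjusted p = 0.032), so no direction is given for Hif1a at that day. The 7-day call was also lost without replicate 1 of rcCHIL3 (-0.16, adjusted p = 0.11) or replicate 2 of MHM + GF (-0.20, adjusted p = 0.08). With either of these arrays left out, Ldhb and Hif1a lost the call and 1 member, Angptl4, was lower at 7 days.

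**Figure D4:**
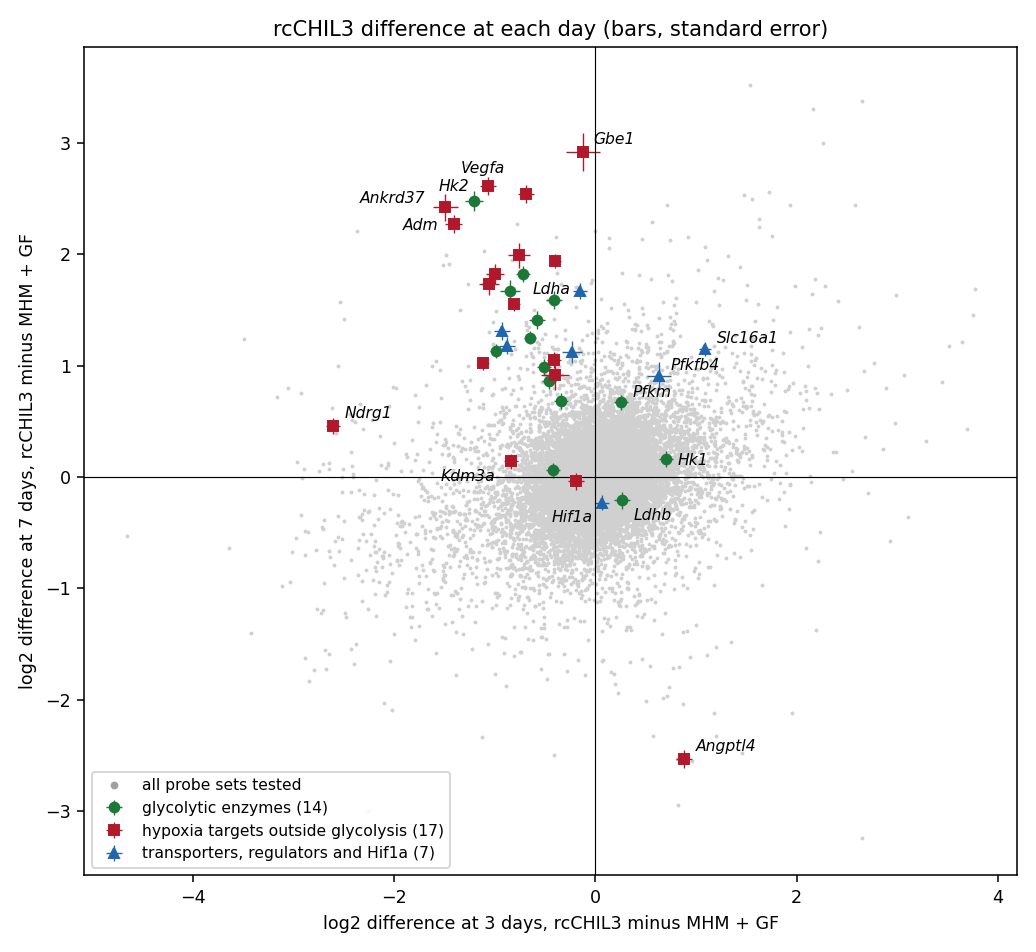
Log2 difference, rcCHIL3 minus MHM + GF, at 3 days (x axis) and 7 days (y axis) for the 38 tested members (coloured, with standard errors) and all probe sets tested (grey). The upper left holds the 25 members called lower at 3 days and higher at 7 days. It also holds Slc2a1, Pfkfb3, Gbe1, Kdm3a and Aldoc, which passed the threshold at 1 day alone. Angptl4 lies at 0.88 and -2.53.

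Glycolytic enzymes and the other hypoxia targets were compared through the median of each list on every array. Between the cultures at 3 days the median of the 14 enzymes differed by -0.46 and that of the 17 targets by -1.35, and at 7 days by 1.27 and 1.53. The enzyme median minus the target median was 2.22 and 2.22 in rcCHIL3 at 3 days against 1.36 and 1.29 in MHM + GF cultures of that day. At 7 days it was 1.17 and 1.30 in rcCHIL3 and 1.59 and 1.39 in MHM + GF cultures. The difference between the cultures in this value was 0.90 at 3 days, where arrays of a group differed by an SD of 0.09. It depends on the measure, since the median of the members' own differences was -0.49 for the enzymes and -0.81 for the targets at 3 days, which lie closer, and 1.06 and 1.73 at 7 days, which lie further apart. The gap of 0.90 at 3 days became 0.45 with a filter of 100, which left out Gys1 alone of the 2 lists. It was 0.42 with the mean over the probe sets of each gene. The gap at 7 days, -0.25, changed sign to 0.02 with the filter of 100. The sizes thus rest on which members enter the median. With 2 arrays a group an exact permutation test cannot fall below 0.333, and none was made.

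**Figure D5:**
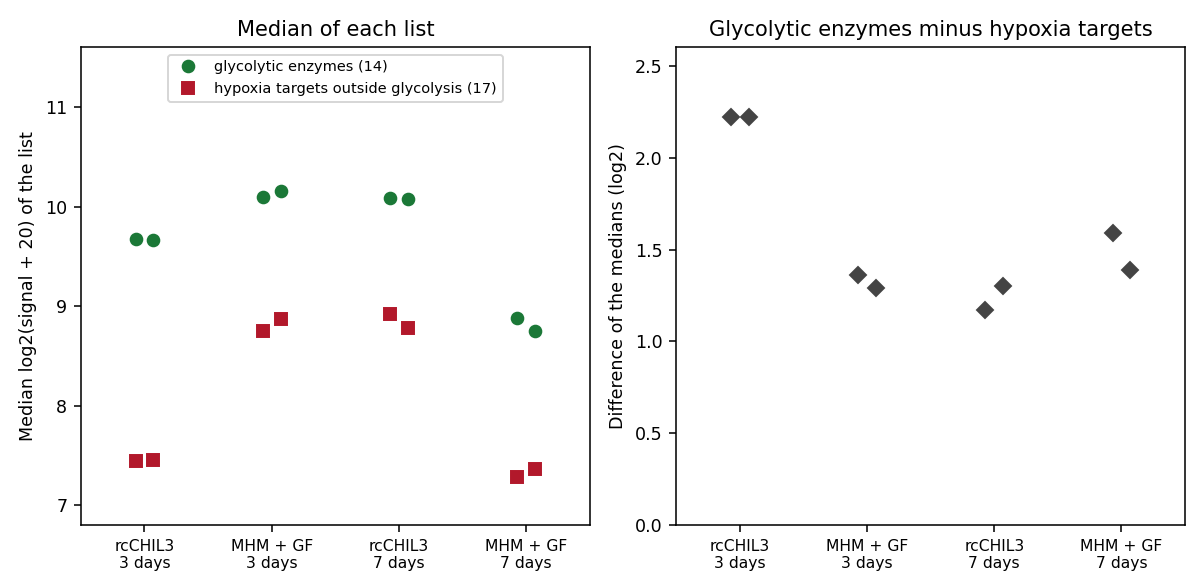
Left, median log2(signal + 20) of 14 glycolytic enzymes (circles) and 17 hypoxia targets outside glycolysis (squares) on each array; right, the difference of the medians, of which only changes between groups carry meaning. Both rcCHIL3 arrays at 3 days are at 2.22 and the other 6 arrays lie from 1.17 to 1.59.

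Other genes of the same pathways were read from lists written by their known roles. Of 16 measured further hypoxia targets 11 were tested. At 3 days 4 were lower and 3 higher with rcCHIL3 (22.1% and 30.3% of all genes tested). Their median difference at that day was -0.04, against -0.55 for the tested members. At 7 days 9 were higher and none lower (21.8% and 22.6% of all genes tested), with a median of 1.07. The 2 others had differences of 0.16 and 0.35 at 7 days. The 3 with the largest 7-day difference were Car12, a carbonic anhydrase (2.03), Tfrc, the transferrin receptor (1.74), and Fam162a, a mitochondrial HIF target (1.73). Of 10 HIF subunits and regulators, 1 was higher and 3 were lower at 7 days (21.8% and 22.6% of all genes tested, which also stand against the 7-day counts that follow). Epas1, the alpha subunit HIF-2 alpha, averaged 487.5 in rcCHIL3 and 148.7 in MHM + GF cultures at 3 days and 715.0 in rcCHIL3 and 258.5 in MHM + GF cultures at 7 days, and was higher at both days (1.59 and 1.40).

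Of 15 tested citrate cycle genes 13 were higher with rcCHIL3 at 7 days and none was lower, with a median difference of 0.47. At 3 days 7 were higher and 2 lower (30.3% and 22.1% of all genes tested), with a median of 0.16. The 2 that were lower, Suclg2 and Fh1, enzymes of the cycle itself, had differences of -0.85 and -0.23 at 3 days and 0.36 and 0.45 at 7 days, and the interaction was positive for 8 of the 15 and negative for none (19.2% and 24.1% of all genes tested). Of 11 genes for the entry of pyruvate into mitochondria 8 were higher at 7 days and 1, Pdk4, was lower (-0.80). Pdk4, a kinase like Pdk1, shared the order of Angptl4, with 0.51 at 3 days. A common regulator of these genes was not tested. Of 6 tested genes of the pentose phosphate pathway 4 were higher at 7 days and Pgd was lower (-0.40), with a largest difference of 0.55 for Taldo1, the transaldolase. Of 7 tested other glycogen genes Pgm1, which links glucose phosphates to glycogen, was higher at 7 days (1.28) and lower at 3 days (-0.51), while Gaa and Pygl, which break glycogen down, were lower at 7 days (-0.39 and -0.32). Of 2 tested gluconeogenesis genes G6pc3 was higher at 7 days, by 0.86.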

How the data were processed

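RNA of secondary neurospheres was hybridised to Affymetrix mouse arrays, 8 in all, 2 for each of 4 groups. The deposited values are linear signal intensities that the authors made with the MAS5 algorithm (Expression Console 1.1 in the submitters' processing notes, GeneChip Operating Software in the methods) and scaled globally. The array averages of these deposited intensities were 267.3 to 316.6, not the stated common value, so each array was rescaled to an average of 100. The value table has no detection calls, and no column was left unused (0). Of 45101 probe sets, 34958 had 1 gene symbol in the platform annotation, 932 several and 9211 none.

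Values were taken as log2(signal + 20). Probe sets with a signal of at least 50 on at least 2 arrays were kept (15679), array controls left out. A limma fit (version 3.58.1, R 4.3.3) with 4 group means, eBayes with a trend and 4 residual degrees of freedom gave the contrasts, two-sided, with Benjamini-Hochberg adjustment over the kept probe sets and a threshold of 0.05. The script was tested on simulated data. Members under the filter come from a fit without one. Fold changes are ratios of mean signals. For 7 of the tested members (Slc2a3, Aldoa, Pgk1, Ldhb, Adm, Angptl4 and Ndrg1) the brightest probe set is of a type that can bind related transcripts; of 20 members with several tested probe sets, 18 had the same sign in all of them at 7 days and 19 at 3 days.

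Named are the core members of each step, in each role up to 3 members with the largest interaction, members opposed to the majority at 7 days, and up to 3 genes of each other list. Members and lists were chosen with earlier results of these data known. The arrays of a group are 2 samples by their labels, and the paper's note to its array data names 2 independent experiments. Which steps were separate is not stated. The p-values rest on the spread between arrays of a group, pooled over the 4 groups and moderated by eBayes. The number of arrays limits the precision. Alternatives covered scaling, offset, filter, model, choice of probe set and leaving out each array. Figures were made with matplotlib 3.10.9.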

Additional observations from a re-analysis of the deposited data

Results flagged for a closer look

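The rcCHIL3 difference at 7 days departed from that at 3 days, by the interaction contrast of the limma fit at an adjusted p under the threshold of 0.05, for 35 of the 38 tested members, beside 43.2% of all genes tested. Of these, 31 were positive and 4 negative, and 25 of the 31 had a called difference in opposite directions at the 2 days.

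Among the glucose transporters and glycolytic enzymes the interaction on the log2 scale was 1.82 for Slc2a1, 2.24 for Slc2a3, 3.69 for Hk2, 2.53 for Pfkl, 1.99 for Pfkp, 0.42 for Pfkm, 1.02 for Aldoa, 0.47 for Aldoc, 1.91 for Tpi1, 1.5 for Pgk1, 1.32 for Pgam1, 2.00 for Eno2, 2.12 for Pkm and 2.54 for Ldha. It was -0.54 for Hk1 and -0.47 for Ldhb. The regulators Pfkfb3 and Pdk1 had 1.35 and 2.06.

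Among the hypoxia targets outside glycolysis it was 3.69 for Vegfa, 3.68 for Adm, 1.46 for Egln1, 2.81 for Egln3, 0.98 for Kdm3a, 2.79 for P4ha1, 2.75 for P4ha2, 2.36 for Bnip3, 2.34 for Higd1a, 3.04 for Gbe1, 1.32 for Gys1, 3.91 for Ankrd37, 3.08 for Ndrg1, 2.13 for Ddit4 and 3.23 for Ero1a. It was -3.41 for Angptl4. Hif1a had -0.30, which held in its brightest probe set and not in the second (-0.02). Slc16a1, Pfkfb4 and Mxi1 did not pass (0.06, 0.29 and 0.15).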

How the results depend on the processing

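Over 4094 pairs of a member's difference and an alternative, 3910 kept their direction and their side of the threshold, 157 lost the call, 25 gained it and 2 changed sign. Both changes of sign were found with the mean over probe sets, for Hif1a at 7 days (0.01) and for Aldoc between the days in MHM + GF (-0.19). Of the 157 lost calls 90 came from the methods' t-test after Benjamini-Hochberg adjustment. It called 3 members higher and 16 lower at 3 days, and 2 higher and 0 lower at 7 days. Between the days it called 0 higher and 0 lower in rcCHIL3, and 1 higher and 20 lower in MHM + GF. Unadjusted, it called 3 higher and 26 lower at 3 days, and 32 higher and 1 lower at 7 days. Between the days, unadjusted, it called 26 higher and 2 lower in rcCHIL3 and 5 higher and 28 lower in MHM + GF. The members lower at 7 days numbered 1 with the signals as deposited and with the mean over probe sets. The member count lower between the days in rcCHIL3 was 2 with a filter of 100 and with quantile normalization and 3 with the mean over probe sets. Negative interactions numbered 1 with the signals as deposited.

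The same numbers did not pair arrays across groups (r from -0.0106 to 0.102), and with the replicate block 2 members in place of 1 were lower between the days in rcCHIL3, with no call lost and 3 gained.

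Leaving out 1 array at a time gave 4 to 6 members higher and 26 to 28 lower at 3 days, 31 higher and 1 to 3 lower at 7 days, 26 to 31 higher and 1 lower between the days in rcCHIL3, 4 higher and 28 to 30 lower between the days in MHM + GF, and 31 positive and 3 to 4 negative interactions. The gap between the medians of enzymes and other targets then ranged from 0.86 to 0.93 at 3 days, from -0.36 to -0.15 at 7 days, from -1.05 to -0.92 between the days in rcCHIL3, from 0.06 to 0.27 in MHM + GF, and from -1.25 to -1.05 for the interaction.

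In the order 3 days, 7 days, rcCHIL3 between the days, MHM + GF between the days and interaction, the gap was 0.90, -0.25, -0.98, 0.17 and -1.15. With a filter of 100, which took out Gys1 alone of the targets and no enzyme, it was 0.45, 0.02, -0.52, -0.08 and -0.44. With the mean over probe sets it was 0.42, -0.40, -0.29, 0.52 and -0.82. With an offset of 50 it was 0.78, -0.15, -0.86, 0.07 and -0.93. Without an offset it was 0.99, -0.34, -1.08 and, for the interaction, -1.34. Without a filter it was -1.14 in rcCHIL3 between the days and -1.24 for the interaction, and with the signals as deposited the interaction was -1.26. Beyond the loss of Gys1 with the filter of 100, the cause of these shifts was not tested.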
